A study of Mus musculus with 12 samples.

Results

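The clustered protocadherins are cell-surface adhesion proteins encoded by 3 neighbouring gene clusters, α, β and γ, on mouse chromosome 18. Members were chosen by symbol, as every listed gene whose name begins with *Pcdha*, *Pcdhb* or *Pcdhg* followed by a number or by a letter and a number. The rule found 58 of the 25860 genes in the RNA-seq table: 14 of α, 22 of β and 22 of γ. RNA-seq and ATAC-seq, which marks open chromatin, had been run on CD8+ progenitor (T_prog_) cells from the pancreatic lymph nodes, with 3 libraries per genotype in each assay. The control group was *NOD-TCR 8.3 WT*, mice on the nonobese diabetic background that carry the transgenic T cell receptor 8.3. The line's controls are described as *UTX fl/fl* without *Lck-Cre*, so both groups would carry the floxed allele, although this is not spelled out for mice with the receptor. The other group, *NOD-TCR 8.3 UTX TCD*, carries the same receptor and *UTX fl/fl* together with a Cre driven by the *Lck* promoter, which deletes *Kdm6a*, the gene of the histone H3K27 demethylase UTX, in T cells. The floxed allele and Cre were bred from B6 onto NOD mice. Only female mice were studied. Their age for these libraries is not given in the sources used here, and the gate is Ly108+CXCR6- in the labels but Ly108+CD39- in the methods.

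As background, each α or γ isoform starts at its own promoter and variable exon, which is spliced to constant exons shared within its cluster, whereas each β gene is a single exon of its own. In neurons, promoter choice differs from cell to cell, depends on CTCF, cohesin and DNA methylation, and gives each cell a set of isoforms that bind like isoforms on other cells. SMCHD1 and histone methylation are known to keep the clusters silent in other cells, and the role of these proteins in CD8+ T cells is not described in the sources used here.

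Values are read counts per gene divided by a size factor for each library (normalized counts). Reads assigned to genes numbered 146456724, 144503203 and 193568919 for WT replicates 1 to 3 and 61512402, 175462433 and 187275082 for UTX TCD replicates 1 to 3, so UTX TCD replicate 1 was the shallowest. A count of 3 reads, taken as the lower limit of detection, equals a normalized count of 2.97, 2.96 and 2.29 in the WT and 6.75, 2.40 and 2.21 in the UTX TCD libraries. The limma test, on log2(normalized count + 1), took genes whose normalized count averaged 10 or more across libraries, and its scale understates the fold change of low genes. A call needed an adjusted p under 0.05 together with a log2 fold change, UTX TCD over WT, beyond 0.5 in either direction. Of the 14459 genes tested, 10.5% were called higher with UTX deleted and 7.05% lower. Counts of called genes in the lists below are to be read against these shares. For any single value, 3 libraries against 3 cannot give an exact permutation p below 0.10.

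The labelled cell type was checked against its defining genes. *Cd8a*, a chain of the CD8 coreceptor, measured 272448, 270012 and 274004 in WT and 311527, 313000.0 and 270975 in UTX TCD libraries. *Cd3e*, of the T cell receptor complex, measured 145172, 139763 and 133010.0 in WT and 165614, 151798 and 151586 in UTX TCD libraries. *Tcf7*, the transcription factor TCF1 of progenitor T cells, measured 244276, 234809 and 227810.0 in WT and 229604, 220872 and 221558 in UTX TCD libraries. All 6 libraries were therefore rich in CD8+ T cell RNA. Of the 8 CD8+ T cell genes listed limma called 0 in either direction (2 higher and 4 lower at an unadjusted p under 0.05, and 0 by edgeR or DESeq2), and 5 passed the adjusted p but not the fold limit. The 4 lower in all 3 UTX TCD libraries, without overlap, were *Cd8b1* (log2 fold change -0.37, SE 0.08, adjusted p = 0.00634), *Cd3d* (log2 fold change -0.28, SE 0.06, adjusted p = 0.00485), *Cd3g* (log2 fold change -0.26, SE 0.06, adjusted p = 0.00631) and *Lck* (log2 fold change -0.17, SE 0.05, adjusted p = 0.0225), and *Cd3e* was higher in all 3 (log2 fold change 0.17, SE 0.06, adjusted p = 0.0414, limma for each). The gate gene *Slamf6*, which encodes Ly108, measured 27732, 34096 and 23305 in WT and 36665, 30979.8 and 35425 in UTX TCD libraries, with overlapping groups. *Cxcr6* measured 12757, 9619 and 13724 in WT and 5286, 5994 and 5695 in UTX TCD libraries. It was detected in every library and was lower in the 3 UTX TCD libraries, without overlap (log2 fold change -1.07, SE 0.12, limma adjusted p = 0.000131). *Entpd1*, which encodes CD39, was low at 10.9, 29.6 and 11.4 in WT and 4.50, 12.8 and 4.42 in UTX TCD libraries. *Kdm6a*, counted over the whole gene, measured 28365, 28949 and 29172 in WT and 24158, 24792 and 24579 in UTX TCD libraries. It was lower in the 3 UTX TCD libraries, without overlap, yet by less than the fold limit (log2 fold change -0.23, SE 0.04, limma adjusted p = 0.00114), and its deleted exons were not analysed here separately.

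The 3 clusters differed in how much RNA they gave. The γ cluster was transcribed in every library and rose in UTX TCD cells: its 22 members were tested and 22 were called higher by limma, where 10.5% of tested genes were. Of these, *Pcdhgb1* and *Pcdhgc5* passed the filter through the UTX TCD libraries. With no filter, limma called 20 of the 22 higher, where 7.79% of all genes were. The β cluster gave a few reads in each library and the α cluster almost none, so 36 of the 58 members, all α and β, fell under the filter and were not tested. Summed over members, γ measured 1095, 910.3 and 1008 in WT and 2863, 2641 and 3370.3 in UTX TCD libraries. The 3 UTX TCD sums lay above the 3 WT sums, at 2958 ± 374 against 1004 ± 92.2 (SD, n = 3), a ratio of 2.95. In bulk RNA, more cells that transcribe γ and more γ RNA per cell cannot be told apart. The β sum was 29.7, 22.7 and 25.2 in WT and 67.5, 55.3 and 19.2 in UTX TCD libraries, and the groups overlapped because UTX TCD replicate 3 lay below every WT library. The α sum was 4.95, 0 and 0 in WT and 4.50, 0 and 0 in UTX TCD libraries, from 7 reads in all.

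**Figure D1:**
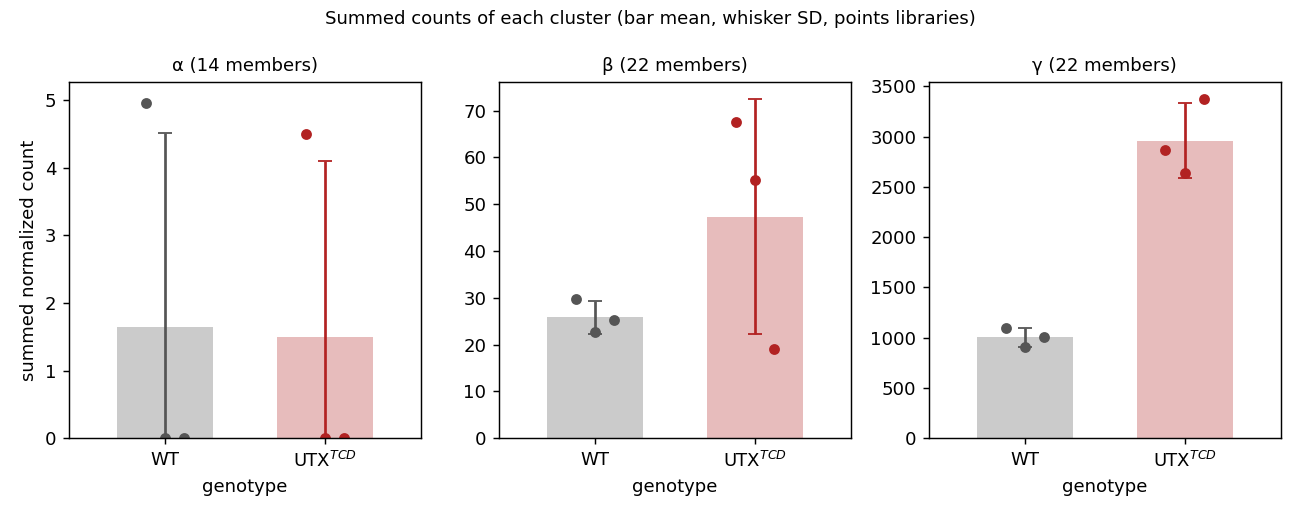
Summed normalized counts of the α, β and γ clusters in each RNA-seq library, WT and UTX TCD, with the mean and SD of 3 libraries. The γ sums lie between 910.3 and 1095 in WT and between 2641 and 3370.3 in UTX TCD libraries.

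The γ members span bases 37661775 to 37841873 of chromosome 18 (mm10). By RefSeq they are 12 of type A, 7 of type B, with *Pcdhgb8* a transcribed pseudogene, and 3 of type C at the downstream end. The own exon of a member holds 2499 to 2961 bases, 54.2% to 77.3% of its exonic length, and the constant exons are common to the cluster. The members were measured in the same libraries and lie in the same cluster, so they are not independent measurements. Of the 22 members, 21 had no overlap between the genotypes with UTX TCD higher, against 25.8% of tested genes, and *Pcdhga10* overlapped. The log2 fold change ran from 0.87 to 3.30 with a median of 1.79, where the median over all tested genes was 0.00, and 2.199% of tested genes lay above the γ median. The ratio of group means passed 2 in 19 members, 4 in 9 and 8 in 4. None of the 22 was called lower by limma, edgeR or DESeq2 (0 at an unadjusted p under 0.05), and edgeR and DESeq2 each called 22 higher. On WT values alone *Pcdhgb1* and *Pcdhgc5* lay under a mean of 10, so these 2 entered the test through the UTX TCD libraries, by which route a member must differ.

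The largest rises were in members that were scarce in WT cells, with 3 near the upstream end and *Pcdhgc5*, the last member downstream, close behind. With a pseudocount of 0.5 *Pcdhgc5* came second at 3.08 (limma adjusted p = 0.00114, UTX TCD higher in 3 of 3 libraries), so the order among them is not fixed. *Pcdhgc5* entered the test through the UTX TCD libraries, by which route a member must differ. *Pcdhga4* measured 18.8, 13.8 and 7.63 in WT and 130.5, 135 and 136 in UTX TCD libraries. The WT libraries were all under 20 and the UTX TCD libraries all above 100, a change from 13.4 ± 5.61 to 134 ± 2.72 (SD, n = 3). Its log2 fold change of 3.30 (SE 0.33, limma adjusted p = 7.65e-05) was the 47th highest of the 14459 tested. *Pcdhga3* measured 14.9, 13.8 and 11.4 in WT and 106, 121 and 118 in UTX TCD libraries. All 3 UTX TCD libraries were far above all 3 WT libraries (log2 fold change 3.02, SE 0.25, adjusted p = 2.51e-05, limma). *Pcdhga2* measured 18.8, 10.9 and 11.4 in WT and 117, 96.9 and 129 in UTX TCD libraries. The groups were again apart, with UTX TCD higher in 3 of 3 libraries (log2 fold change 3.00, SE 0.29, adjusted p = 6.87e-05, limma).

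*Pcdhgb1*, the first type B member, measured 5.94, 12.8 and 6.10 in WT and 67.5, 37.6 and 69.3 in UTX TCD libraries. It was near the detection limit in WT and clearly present in the 3 UTX TCD libraries (log2 fold change 2.70, SE 0.41, adjusted p = 0.000834, limma). With a WT mean under 10 *Pcdhgb1* entered this test through the UTX TCD libraries, by which route a member must differ. With no filter, where that route plays no part, limma called *Pcdhgb1* higher as well. *Pcdhgb2* measured 24.8, 12.8 and 23.6 in WT and 119, 126 and 119 in UTX TCD libraries. The UTX TCD libraries lay close together and above every WT library (log2 fold change 2.57, SE 0.29, adjusted p = 0.000158, limma). *Pcdhga1*, the most upstream γ gene, measured 26.7, 26.7 and 22.9 in WT and 72.0, 88.9 and 59.7 in UTX TCD libraries. All 3 UTX TCD libraries were higher than any WT library, with a smaller fold change than in the 5 members that follow it (log2 fold change 1.48, SE 0.25, adjusted p = 0.00174, limma).

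In 2 members in the middle of the cluster the WT libraries varied widely. *Pcdhga5* measured 30.7, 7.90 and 41.9 in WT and 90.0, 123 and 114 in UTX TCD libraries. WT replicate 2 was the lowest, and the 3 UTX TCD libraries were above all WT libraries. *Pcdhga6* measured 13.9, 1.97 and 22.1 in WT and 38.2, 42.4 and 36.1 in UTX TCD libraries. WT replicate 2 held 2 reads and WT replicate 3 came closest to the UTX TCD libraries, which were all higher (log2 fold change 1.98, SE 0.67, adjusted p = 0.0420, limma). Without WT replicate 2 its log2 fold change was 1.10. The limma call was lost without WT replicate 1 (adjusted p = 0.0542) and without UTX TCD replicate 1, 2 or 3 (adjusted p = 0.0765, 0.105 and 0.0819), with the log2 fold change between 1.10 and 2.58 over its 17 alternatives. It was also lost with no filter (limma adjusted p = 0.0511). *Pcdhga7* measured 27.7, 12.8 and 18.3 in WT and 81.0, 64.9 and 117 in UTX TCD libraries. *Pcdhgb4* measured 43.6, 43.4 and 32.0 in WT and 135, 115 and 135 in UTX TCD libraries. *Pcdhga8* measured 37.6, 33.6 and 31.3 in WT and 146, 120.1 and 119 in UTX TCD libraries. In each of these 3 genes every UTX TCD library was above every WT library, with log2 fold changes of 2.13, 1.68 and 1.88.

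The members with the highest WT counts per kb of own exon lay farther downstream. *Pcdhgb6*, with *Pcdhgc3* at the top of that scale, measured 187, 123 and 127 in WT and 268, 253 and 265 in UTX TCD libraries. WT replicate 1 was the highest of its group yet below the 3 UTX TCD libraries, and the rise was the smallest of the 22 (log2 fold change 0.87, SE 0.19, adjusted p = 0.00537, limma). Without WT replicate 1 the log2 fold change of *Pcdhgb6* was 1.06, above *Pcdhga12* at 0.78, so that place is not fixed. *Pcdhgb7* measured 101, 107 and 101 in WT and 223, 161 and 232 in UTX TCD libraries. The WT libraries were nearly equal and UTX TCD replicate 2 rose least (log2 fold change 0.97, SE 0.18, adjusted p = 0.00295, limma). *Pcdhga12*, the last type A member, measured 96.1, 117 and 145 in WT and 261, 235 and 185 in UTX TCD libraries. UTX TCD replicate 3 was the lowest of its group and WT replicate 3 the highest of the other, without overlap (log2 fold change 0.92, SE 0.21, adjusted p = 0.00652, limma). *Pcdhga11* measured 99.1, 70.1 and 92.3 in WT and 218, 178 and 381 in UTX TCD libraries. UTX TCD replicate 3 stood above the other UTX TCD libraries, and all 3 were above WT (log2 fold change 1.499, SE 0.28, adjusted p = 0.00278, limma).

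*Pcdhga10* measured 31.7, 47.4 and 15.3 in WT and 74.2, 45.6 and 108 in UTX TCD libraries. UTX TCD replicate 2 lay below WT replicate 2, so the groups overlapped, and 2 of 3 UTX TCD libraries were above every WT library (log2 fold change 1.30, SE 0.45, adjusted p = 0.0446, limma). Its call was lost without WT replicate 1 or 3 (limma adjusted p = 0.0827 and 0.125) and without UTX TCD replicate 1 or 3 (limma adjusted p = 0.0884 and 0.135), with the log2 fold change between 0.87 and 1.65 over its 18 alternatives. With the replicate number as a block its limma adjusted p was 0.0819, and with no filter it was 0.0589. *Pcdhgb5* measured 44.6, 38.504 and 26.7 in WT and 135, 155 and 192 in UTX TCD libraries. *Pcdhga9* measured 47.5, 23.7 and 41.9 in WT and 108, 103 and 148 in UTX TCD libraries. *Pcdhgb8*, the pseudogene, measured 52.5, 40.5 and 33.6 in WT and 106, 99.3 and 128 in UTX TCD libraries. Each of the latter 3 was higher in all UTX TCD libraries than in any WT library, with log2 fold changes of 2.12, 1.68 and 1.39.

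The type C members close the cluster and differed widely from each other. *Pcdhgc3* measured 148, 129 and 157 in WT and 259, 246 and 413 in UTX TCD libraries. It was abundant in every library and highest in UTX TCD replicate 3 (log2 fold change 1.04, SE 0.21, adjusted p = 0.00424, limma; all 3 UTX TCD libraries higher). *Pcdhgc4*, the isoform known from mice for its part in neuron survival, measured 21.8, 15.8 and 33.6 in WT and 67.5, 53.7 and 120.2 in UTX TCD libraries. UTX TCD replicate 3 was again the highest, and the groups did not overlap (log2 fold change 1.70, SE 0.38, adjusted p = 0.00681, limma). *Pcdhgc5* measured 1.98, 6.91 and 6.86 in WT and 42.7, 40.8 and 45.7 in UTX TCD libraries. WT replicate 1 held 2 reads and the WT libraries were near the detection limit, whereas the UTX TCD libraries lay close together and above all of them (log2 fold change 2.95, SE 0.45, adjusted p = 0.000903, limma). With a WT mean under 10 *Pcdhgc5* entered the test through the UTX TCD libraries.

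**Figure D2:**
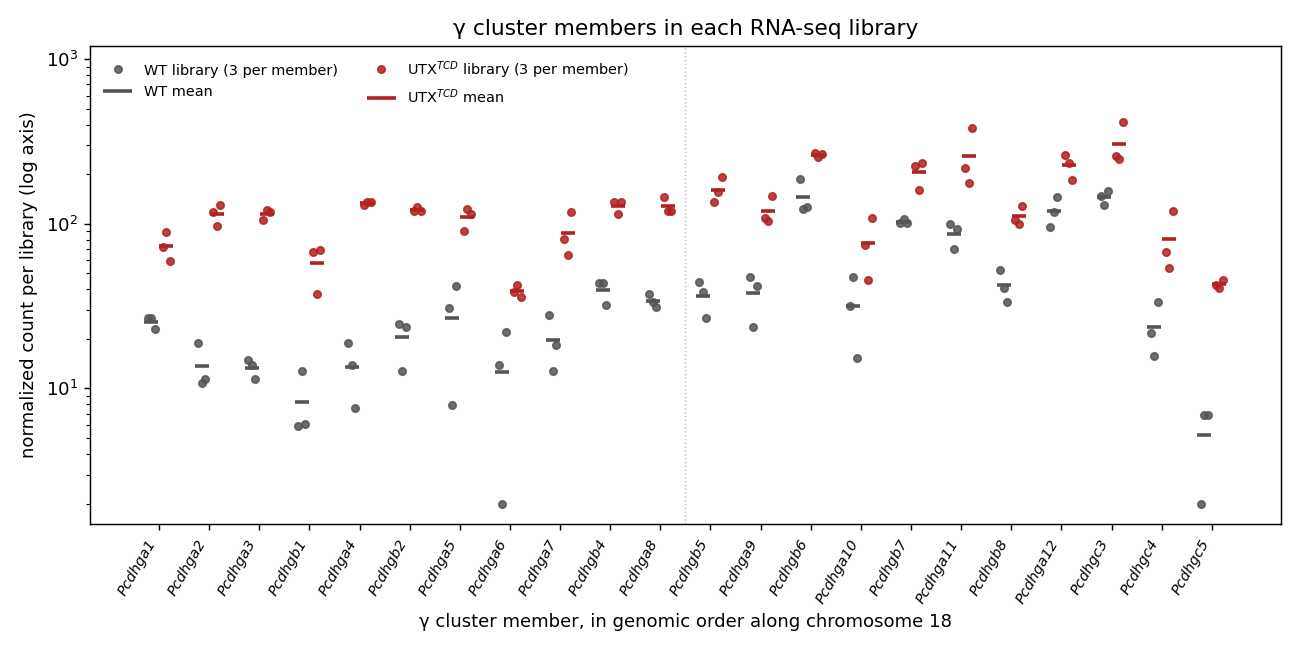
Normalized counts of the 22 γ members in order along chromosome 18, on a log axis, with a point for each WT and UTX TCD library, a bar at each mean and a dotted line between the first 11 and last 11 members. *Pcdhga10*, from 15.3 to 108, is the member whose groups overlap. The gap is wider at the upstream member *Pcdhga4* (log2 fold change 3.30) than at *Pcdhgb6* (0.87).

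The rise differed between upstream and downstream members, although the members at either end went against that order. *Pcdhga1*, the most upstream, had a log2 fold change of 1.48 and *Pcdhgc5*, the most downstream, 2.95. Place counted from *Pcdhga1* and WT count per kb of own exon had a Pearson r of 0.51 over the 22 members. Whether the rise follows place or WT level was not tested. The 11 upstream members, *Pcdhga1* to *Pcdhga8*, summed to 263, 191 and 229 in WT and 1102, 1071 and 1153 in UTX TCD libraries. The 3 UTX TCD sums were all far above the 3 WT sums, and the ratio of means was 4.87. The 11 downstream members, *Pcdhgb5* to *Pcdhgc5*, summed to 831, 719.7 and 779 in WT and 1761, 1570.3 and 2217 in UTX TCD libraries. These groups were apart as well, with a ratio of 2.38. The median log2 fold change was 2.25 upstream and 1.39 downstream. As a share of all γ counts, the upstream members took 24.1, 20.9 and 22.7% in WT and 38.49, 40.5 and 34.2% in UTX TCD libraries, so their share was higher in every UTX TCD library. Across the 22 members, place counted from *Pcdhga1* and log2 fold change had a Pearson r of -0.56 and a Spearman rho of -0.56, a description over genes that share the same 6 libraries. The sums, medians and correlation include *Pcdhgb1* upstream and *Pcdhgc5* downstream, which entered the test through the UTX TCD libraries, so they support no conclusion on place. The difference between upstream and downstream members was not tested.

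By type, the 12 type A members summed to 435 in WT and 1482 in UTX TCD cells on average, with a median log2 fold change of 1.93. The 7 type B members summed to 396 and 1047, with a median of 1.68. The 3 type C members summed to 174 and 429, with a median of 1.70. Type B includes *Pcdhgb1* and type C *Pcdhgc5*, which entered the test through the UTX TCD libraries, so the medians support no comparison of types. The difference between types was not tested.

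Levels were compared between members as mean normalized count per kb of own exon. In WT cells the highest levels per kb were those of *Pcdhgb6* at 56.8 ± 14.02 and *Pcdhgc3* at 56.3 ± 5.50 (SD, n = 3), which did not differ beyond their spread. *Pcdhga12* at 40.4 ± 8.26 and *Pcdhgb7* at 39.9 ± 1.30, also within their spread, and *Pcdhga11* at 33.6 ± 5.84 came next, and the lowest was *Pcdhgc5* at 2.03 ± 1.09. In UTX TCD cells the same 5 members led per kb, with *Pcdhgc3* at 119 ± 36.2 and *Pcdhgb6* at 102 ± 3.07, again within their spread. The lowest there were *Pcdhga6* at 15.3 ± 1.26 and *Pcdhgc5* at 16.6 ± 0.947, also within their spread. The highest level per kb was 28.0 times the lowest in WT and 7.80 times in UTX TCD cells. The lowest in WT was *Pcdhgc5*, which entered the test through the UTX TCD libraries, so the size of this narrowing depends on it. Among members with a WT mean of at least 10, *Pcdhga6* was lowest in WT at 4.96 ± 3.97 per kb. The 5 leading members took 59.7% of γ counts in WT and 42.6% in UTX TCD cells. The strand of the counted reads is not given in the sources used here, and GENCODE vM21 places an exon of an antisense gene over 14.3% to 100% of the own exon bases of 8 members, with 100% in *Pcdhga10*, whose groups overlap. These 8 summed to 565 in WT and 1363 in UTX TCD cells, and the 14 without such an exon to 439.6 and 1596. The median log2 fold change was 1.39 over the 8 and 2.18 over the 14. The 14 include *Pcdhgb1* and *Pcdhgc5*, which entered the test through the UTX TCD libraries, so the difference between the medians supports no conclusion. Whether antisense reads added to the rise was not tested.

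Chromatin at the γ cluster was more accessible in UTX TCD cells. The ATAC-seq table lists 23932 peaks of 401 bases that passed the authors' false discovery limit of 0.05, each with the authors' log2 mean of normalized reads per genotype and no value per library, so no error can be given. In the 1 Mb of chromosome 18 that holds the 3 clusters it lists 20 peaks. All 20 were more accessible in UTX TCD cells, where 68.8% of the listed peaks were, and in 11 the authors' means differed by over 1 on the log2 scale, against 19.1% of the listed peaks. Of the 20, 17 were assigned to γ members, 1 to a β member and 0 to α, and the other 2 lay in an intron of *Diaph1*, the gene downstream of γ. In the 2 Mb around the clusters 18 further peaks are listed outside that window, 16 more and 2 less accessible, from -0.88 (in another intron of *Diaph1*) to 1.92 with a median of 0.59. The 17 γ peaks differed by 0.52 to 2.15 with a median of 1.34, where the median over all more accessible peaks was 0.69.

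Most γ peaks lay at promoters. Of the 22 members, 16 had an assigned peak and 14 had it within 1 kb of the gene start, against 11.5% of genes overall with a more accessible peak that near. At *Pcdhga2* the authors' log2 mean at bases 37668694-37669094 was 4.90 in WT and 7.05 in UTX TCD cells, a difference of 2.15. At *Pcdhga7* the peak at 37714572-37714972 measured 6.42 in WT and 8.50 in UTX TCD cells, a difference of 2.08. At *Pcdhga4* the peak at 37685070-37685470 measured 4.15 in WT and 5.99 in UTX TCD cells, a difference of 1.84. These were the 3 largest gains among the γ peaks, all upstream, and *Pcdhga8* followed with 1.84. Differences at *Pcdhga6*, *Pcdhga5*, *Pcdhgb4* and *Pcdhga1* were 1.62, 1.54, 1.46 and 1.34, and a second peak at -5903 bases from the *Pcdhga1* start differed by 1.44.

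Downstream promoters gained less. At *Pcdhgb7* the peak at 37751566-37751966 measured 9.08 in WT and 9.65 in UTX TCD cells, a difference of 0.56. At *Pcdhgc4* the peak at 37815133-37815533 measured 9.10 in WT and 9.72 in UTX TCD cells, a difference of 0.62. Both had higher means in WT cells than the upstream promoters above. The promoters of *Pcdhgb5*, *Pcdhga11*, *Pcdhgb6* and *Pcdhgb8* differed by 1.26, 1.00, 0.68 and 0.52. In *Pcdhga12* and *Pcdhgc3* the peak lay in the first exon, 2709 and 2155 bases from the start, with differences of 0.98 and 0.67. Within 1 kb of the start, the 8 promoter peaks of the 11 upstream members differed by a median of 1.73 and the 6 of the 11 downstream members by 0.65.

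**Figure D3:**
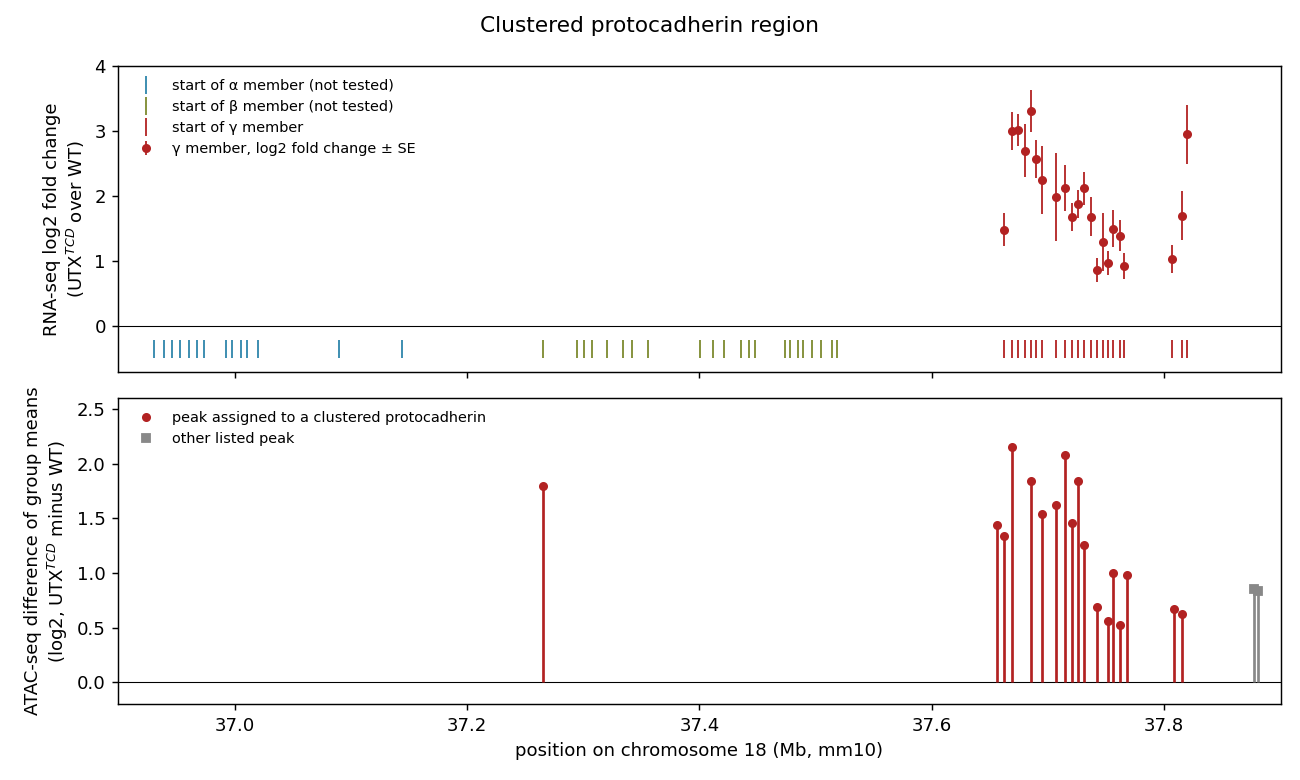
Map of 1 Mb of chromosome 18 (mm10) with the RNA log2 fold change and SE of each γ member and the starts of the α, β and γ genes above, and the listed ATAC-seq peaks below, drawn at the difference of the authors' log2 group means, UTX TCD minus WT. Of the 20 peaks 17 fall on γ, where differences run from 0.52 to 2.15, 1 on β and 0 on α.

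In γ, members with a larger gain in accessibility tended to have a larger gain in RNA. Over the 14 members with a peak within 1 kb, the peak difference and the log2 fold change of RNA had a Pearson r of 0.78 and a Spearman rho of 0.81, a description across genes of 1 locus that are not independent replicates. Over the same 14, place counted from *Pcdhga1* and the peak difference had a Pearson r of -0.78 and a Spearman rho of -0.78. Whether accessibility and RNA go together apart from place was not tested. The 6 members with no assigned peak, *Pcdhga3*, *Pcdhgb1*, *Pcdhgb2*, *Pcdhga9*, *Pcdhga10* and *Pcdhgc5*, had RNA log2 fold changes of 1.30 to 3.02 with a median of 2.63, against 1.69 over the 16 with one. Of these 6, *Pcdhgb1* and *Pcdhgc5* entered the test through the UTX TCD libraries, so the difference between the medians supports no conclusion. The values of *Pcdhga3*, *Pcdhgb2*, *Pcdhga9* and *Pcdhga10* were 3.02, 2.57, 1.68 and 1.30. Members with no listed peak thus rose too, and their promoters were not analysed here.

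**Figure D4:**
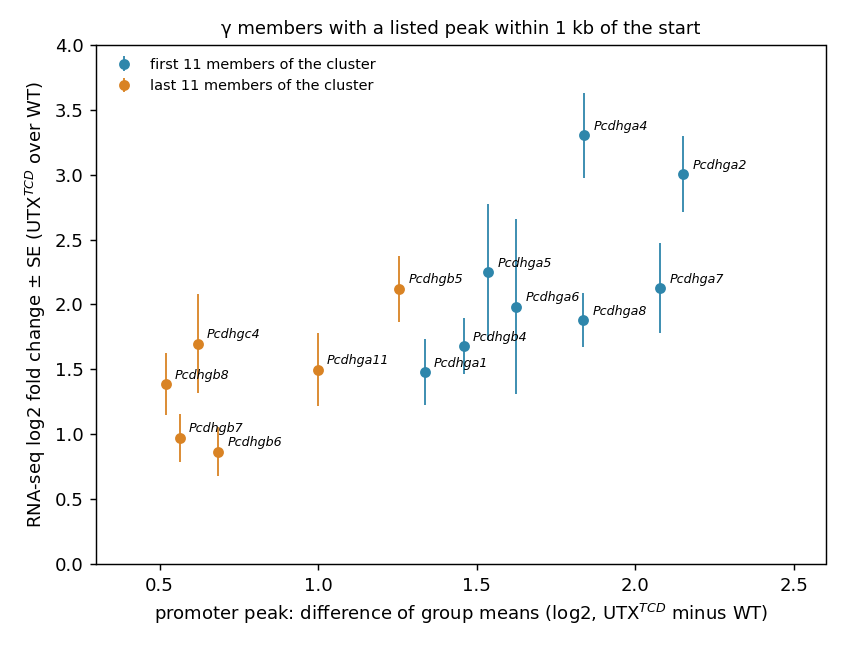
Difference of the authors' log2 ATAC-seq means at the promoter peak (UTX TCD minus WT) against the log2 fold change of RNA, with a point for each of the 14 γ members with a listed peak within 1 kb of the start and its SE as a whisker. Pearson r was 0.78, and *Pcdhga2* (peak difference 2.15, log2 fold change 3.00) lies at the upper right.

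The β genes, bases 37264998 to 37521419, gave little RNA, with a normalized count of at most 13.5 for any member in any library. Of the 22, 8 had no read in any library (*Pcdhb1*, *Pcdhb3*, *Pcdhb6*, *Pcdhb8*, *Pcdhb9*, *Pcdhb10*, *Pcdhb15* and *Pcdhb21*) and 14 had at least 1. The β sum came from 30, 23 and 33 reads in the WT and 30, 69 and 26 in UTX TCD libraries. *Pcdhb17* measured 0, 1.97 and 0 in WT and 8.998, 12.8 and 5.16 in UTX TCD libraries. Every UTX TCD library was above every WT library, of which 2 held no read. Its mean fell under the filter, and with no filter it was the 1 β member called by limma (log2 fold change 2.72, adjusted p = 0.00661, UTX TCD higher in 3 of 3 libraries). That is 7.14% of the 14 β members then tested, against 7.79% of all genes called higher in the same fit. *Pcdhb7* ran the other way, at 1.98, 1.97 and 4.58 in WT and 0, 0 and 1.47 in UTX TCD libraries, also without overlap. With no filter its log2 fold change of -1.44 did not pass limma (adjusted p = 0.0847, UTX TCD lower in 3 of 3 libraries). *Pcdhb5* measured 0.991, 7.90 and 2.29 in WT and 13.5, 12.8 and 6.63 in UTX TCD libraries, and WT replicate 2 overlapped the UTX TCD range.

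For the other β members with reads, the genotypes overlapped. *Pcdhb14* measured 7.92, 1.97 and 6.10 in WT and 4.50, 9.61 and 0 in UTX TCD libraries. *Pcdhb22* measured 2.97, 1.97 and 0 in WT and 8.998, 6.41 and 0 in UTX TCD libraries. *Pcdhb18* measured 3.96, 0 and 0 in WT and 8.998, 3.20 and 2.95 in UTX TCD libraries. All 3 held libraries with no read beside libraries with several, in no order by genotype that separated the groups. *Pcdhb13* measured 3.96, 0.987 and 4.58 in WT and 4.50, 2.40 and 0.737 in UTX TCD libraries. *Pcdhb4* measured 0.991, 1.97 and 3.81 in WT and 6.75, 0.801 and 2.21 in UTX TCD libraries. Both overlapped as well. The remaining 6, *Pcdhb2*, *Pcdhb11*, *Pcdhb12*, *Pcdhb16*, *Pcdhb19* and *Pcdhb20*, held between 3 and 8 reads each over all 6 libraries. The listed β peak lay at the *Pcdhb1* promoter (bases 37264874-37265274) and measured 4.11 in WT and 5.91 in UTX TCD cells, a difference of 1.80, although *Pcdhb1* had no read in any library.

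The α genes, bases 36930285 to 37188897, gave almost no RNA in either genotype. *Pcdha8* had 3 reads in WT replicate 1, *Pcdha5* 2 reads in UTX TCD replicate 1, and *Pcdha11* and *Pcdha12* 1 read each in WT replicate 1. The other 10 (*Pcdha1*, *Pcdha2*, *Pcdha3*, *Pcdha4*, *Pcdha6*, *Pcdha7*, *Pcdha9*, *Pcdha10*, *Pcdhac1* and *Pcdhac2*) had 0 reads in all 6 libraries, where 3 reads equal a normalized count of at most 6.75. *Pcdha8* thus reached the limit of 3 reads in 1 library, and a difference between genotypes was not detectable at this depth. RefSeq leaves *Pcdha4* and *Pcdha7* 0 exonic bases that no other gene model shares, so a count that skips reads shared between genes could not register them.

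The rise was compared with that of genes nearby and of related adhesion proteins. Of the 32 other genes listed in the 2 Mb of chromosome 18 around the clusters, 26 were tested, with a median log2 fold change of 0.02. Limma called 0 higher and 1 lower (4 higher and 10 lower at an unadjusted p under 0.05, 0 higher and 1 lower by edgeR, 1 higher and 0 lower by DESeq2). The 1 was the vault RNA gene *Vaultrc5*, at 41.6, 41.5 and 34.3 in WT and 20.2, 22.4 and 22.1 in UTX TCD libraries. It was lower in the 3 UTX TCD libraries, without overlap (log2 fold change -0.82, SE 0.27, adjusted p = 0.0353, limma). That call was lost with the replicate number as a block (adjusted p = 0.0651) and in limma without WT replicate 1, 2 or 3 (adjusted p = 0.127, 0.0773 and 0.0622) or UTX TCD replicate 1 or 2 (adjusted p = 0.0879 and 0.0795). It was also lost by DESeq2 (adjusted p = 0.123) and by limma with no filter (adjusted p = 0.0807).

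Named after their values were seen, the genes that flank γ are *Slc25a2* and *Taf7* upstream and *Diaph1* downstream. *Slc25a2* measured 38.6, 59.2 and 59.5 in WT and 42.7, 57.7 and 37.6 in UTX TCD libraries. The groups overlapped, and limma gave an adjusted p of 0.643 at a log2 fold change of -0.18, with UTX TCD below the WT mean in 2 of 3 libraries. *Taf7*, a subunit of the general transcription factor TFIID, measured 4701, 4781 and 4767 in WT and 3968, 4093 and 3505 in UTX TCD libraries. *Diaph1*, an actin-nucleating formin, measured 47923, 46652 and 49722 in WT and 37164, 38649.5 and 35784 in UTX TCD libraries. Both were lower in the 3 UTX TCD libraries by less than the fold limit, at log2 fold changes of -0.30 and -0.37.

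The non-clustered protocadherins, single genes outside the clusters, did not pass the filter. *Pcdh1* and *Pcdh12* lie within the 2 Mb around the clusters and are neighbours of them as well. All 12 were listed, 0 were tested, and their sum was 39.6, 37.5 and 29.7 in WT and 31.5, 30.4 and 22.1 in UTX TCD libraries. UTX TCD sums overlapped those of WT. *Pcdh12*, the most abundant over all 6 libraries, measured 13.9, 7.90 and 7.63 in WT and 6.75, 4.80 and 6.63 in UTX TCD libraries. *Pcdh7*, with the higher WT mean, measured 13.9, 4.94 and 16.8 in WT and 4.50, 0 and 3.69 in UTX TCD libraries. In both, each UTX TCD value was below each WT value, and neither was tested. *Pcdh1* ran the other way without overlap, at 0.991, 0.987 and 0 in WT and 2.25, 1.602 and 1.47 in UTX TCD libraries, with at most 2 reads per library, and was not tested. *Pcdh7* and *Pcdh1* were named after their values were seen. Of 10 listed peaks assigned to these genes, 8 were more accessible in UTX TCD cells and 2, both of *Pcdh7*, less accessible (-0.59 and -0.86). Of the 8, 4 were peaks of *Pcdh1* and are among the 18 around the clusters. Other than the largest gain, those that were more accessible differed by 0.45 to 0.71. The largest, chosen after its values were seen, was at the promoter of *Pcdh8* on chromosome 14 (bases 79771120-79771520), with an authors' log2 mean of 5.05 in WT and 7.09 in UTX TCD cells, a difference of 2.04. RNA of *Pcdh8* had 0 reads in 5 libraries and 2 reads in UTX TCD replicate 3.

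Genes known to act on the clusters were read beside them. Of 11 genes of CTCF and cohesin, which loop protocadherin promoters to enhancers, 11 were tested and limma called 0 (2 higher and 3 lower at an unadjusted p under 0.05, 0 by edgeR or DESeq2). Of 23 silencing genes, 23 were tested, 1 was called higher and 0 lower (14 higher and 2 lower at an unadjusted p under 0.05, 1 higher and 0 lower by edgeR and by DESeq2), with a median log2 fold change of 0.12. The 1 was *Uhrf1*, which brings DNA methylation maintenance to newly copied DNA, at 4219.9, 4606 and 4566 in WT and 8134, 8607 and 9713 in UTX TCD libraries. All 3 UTX TCD libraries were higher (log2 fold change 0.98, SE 0.07, adjusted p = 1.28e-05, limma). *Ezh2* and *Smchd1*, named after their values were seen, were just under the fold limit. *Ezh2* measured 7935, 7917 and 7789 in WT and 10727, 11102 and 11528 in UTX TCD libraries (log2 fold change 0.50, SE 0.04, adjusted p = 3.73e-05, limma). *Smchd1* measured 62173, 64869 and 64981 in WT and 88217, 91813 and 89989 in UTX TCD libraries (log2 fold change 0.49, SE 0.04, adjusted p = 3.26e-05, limma). Both were higher in the 3 UTX TCD libraries. Of the 5 demethylases of DNA or H3K27, *Kdm6a* included, 5 were tested and limma called 0 (1 higher and 2 lower at an unadjusted p under 0.05, 0 by edgeR or DESeq2). The 5 other genes known to be silenced by SMCHD1 were listed, and 0 passed the filter.

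Clustered protocadherins signal through cytoplasmic partners, of which 12 of 12 were tested, 1 was called higher and 1 lower. Over all tested genes 10.5% were called higher and 7.05% lower, so these counts were near those shares. *Ptk2*, the focal adhesion kinase that γ and α proteins inhibit, measured 707, 656 and 721 in WT and 1728, 1727 and 1523 in UTX TCD libraries. It was higher in the 3 UTX TCD libraries, without overlap (log2 fold change 1.25, SE 0.09, adjusted p = 9.34e-06, limma). *Pdcd10*, an adaptor known to bind γ proteins, measured 10277, 9514 and 10827 in WT and 6442, 6478 and 6955 in UTX TCD libraries. It was lower in the 3 UTX TCD libraries (log2 fold change -0.62, SE 0.06, adjusted p = 5.42e-05, limma). The other 10 partners were not called.

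Markers of other cells were read beside the γ rise, and their part in it was not tested. Neurons are the cells best known for these genes. Of 14 neuron genes, 4 were tested, 1 was called higher and 1 lower, and their sum was 907, 863 and 856 in WT and 547, 534 and 543 in UTX TCD libraries, lower in all UTX TCD libraries. *Tubb3*, the most abundant, measured 667, 625 and 605 in WT and 227, 243 and 169 in UTX TCD libraries, lower in the 3 UTX TCD libraries (log2 fold change -1.58, SE 0.15, adjusted p = 6.58e-05, limma). *Map2*, a microtubule-binding protein, measured 2.97, 7.90 and 1.53 in WT and 42.7, 42.4 and 39.1 in UTX TCD libraries, higher in the 3 UTX TCD libraries (log2 fold change 3.25, SE 0.49, adjusted p = 0.000865, limma). With a WT mean under 10 it entered the test through the UTX TCD libraries. *Syn1* measured 203, 183 and 211 in WT and 238, 222 and 294 in UTX TCD libraries, higher in the 3 UTX TCD libraries and not called (log2 fold change 0.33, SE 0.16, adjusted p = 0.123, limma). *Slc17a7* held at most 36 reads in a library, *Rbfox3* 20, *Elavl4* 7 and *Dcx* 6, with overlapping groups. The other 7, *Snap25*, *Syt1*, *Stmn2*, *Gap43*, *Nefl*, *Nefm* and *Gad1*, held at most 3 reads in every library.

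Of 8 genes of stroma and endothelium, 4 were tested and 1 was called higher, *Col1a2*, at 279, 155 and 282 in WT and 394, 472 and 357 in UTX TCD libraries (log2 fold change 0.81, SE 0.23, adjusted p = 0.0222, limma, all 3 UTX TCD libraries higher). Without UTX TCD replicate 2 that call was lost (limma adjusted p = 0.0810), and without WT replicate 2 the log2 fold change was 0.53. The list's sum was 32075, 29958 and 32221 in WT and 38120.4, 38335 and 34028 in UTX TCD libraries, higher in all UTX TCD libraries and almost all from *Pecam1*, which T cells also express. *Pecam1* measured 31173, 29365 and 31327 in WT and 37056, 37236 and 33068 in UTX TCD libraries, all 3 UTX TCD libraries higher by less than the fold limit. *Cdh5*, which defines endothelium, went the other way, at 24.8, 21.7 and 9.91 in WT and 0, 0 and 0 in UTX TCD libraries. It fell under the filter and was named after its values were seen.

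Of 7 B cell genes, 5 were tested, 2 called higher (*Cd22* and *Ms4a1*) and 1 lower (*Cd79b*), and their sum was 3036, 2543 and 2884 in WT and 1503, 1331 and 1509.7 in UTX TCD libraries, lower in all UTX TCD libraries. *Cd79b*, the most abundant, measured 2502, 1930.1 and 2465 in WT and 648, 633 and 469.6 in UTX TCD libraries. *Cd22* measured 79.2, 102 and 79.3 in WT and 277, 247 and 502 in UTX TCD libraries. *Ms4a1*, which encodes CD20, measured 5.94, 19.7 and 8.39 in WT and 20.2, 29.6 and 73.0 in UTX TCD libraries. The B cell genes thus went both ways, and the *Ms4a1* call was lost in limma without WT replicate 1 or 3 (adjusted p = 0.119 and 0.0894) and without UTX TCD replicate 2 or 3 (adjusted p = 0.0682 and 0.112).

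Of 8 myeloid genes, 5 were tested, 0 called higher (1 at an unadjusted p under 0.05, 0 by edgeR or DESeq2) and 3 called lower by limma, *Itgam*, *Itgax* and *Csf1r*. *Itgam* measured 453, 434 and 459.9 in WT and 72.0, 91.3 and 64.1 in UTX TCD libraries. *Itgax* measured 48.5, 24.7 and 55.7 in WT and 0, 0 and 4.42 in UTX TCD libraries. *Csf1r* measured 27.7, 25.7 and 19.1 in WT and 4.50, 5.61 and 8.11 in UTX TCD libraries. In each, all UTX TCD libraries were below all WT libraries, and *Itgax* and *Csf1r*, with UTX TCD means under 10, entered the test through the WT libraries. *Cd68*, the most abundant, measured 685, 667 and 544 in WT and 972, 703 and 896 in UTX TCD libraries, called higher when UTX TCD replicate 2 was left out (log2 fold change 0.57, limma adjusted p = 0.0141). The myeloid sum was 1289.8, 1263 and 1132 in WT and 1111, 887 and 1039 in UTX TCD libraries.

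Of 4 NK cell genes, 2 were tested and 1 was called higher, *Eomes*, a transcription factor of CD8+ T cells as well, at 13370.0, 15314 and 13176 in WT and 19099.6, 19086 and 26829 in UTX TCD libraries. UTX TCD replicate 3 was the highest, and without it the log2 fold change was 0.46, under the limit. The NK sum was 13406, 15369.8 and 13193 in WT and 19118, 19097 and 26867 in UTX TCD libraries, nearly all *Eomes*. *Klra8*, an NK receptor gene under the filter, measured 0, 0 and 0 in WT and 4.50, 4.80 and 9.58 in UTX TCD libraries. *Klrb1c*, the other tested, went the other way with overlapping groups, at 28.7, 55.3 and 16.8 in WT and 13.5, 5.61 and 25.8 in UTX TCD libraries, and was not called (log2 fold change -1.18, SE 0.59, adjusted p = 0.1403, limma, 2 of 3 UTX TCD libraries below all WT libraries). *Ncr1* had reads in 1 library of each genotype, with a lower UTX TCD mean. *Klra8*, *Klrb1c* and *Ncr1* were named after their values were seen. Of 3 CD4+ T cell genes, 3 were tested and 2 called lower by limma. *Zbtb7b* measured 68.4, 34.6 and 86.2 in WT and 8.998, 18.4 and 22.9 in UTX TCD libraries. *Cd4* measured 90.1, 104 and 83.1 in WT and 58.5, 68.1 and 41.3 in UTX TCD libraries. Both were lower in all UTX TCD libraries, and the *Cd4* call was lost without any 1 library except UTX TCD replicate 2 (limma adjusted p from 0.0619 to 0.101). It was also lost by DESeq2 (adjusted p = 0.0573), and by limma with libraries scaled to the same sum (0.0543), at equal depth (0.0512) and with no filter (0.0673), with log2 fold changes of -0.75 to -0.67. *Foxp3*, the most abundant, measured 317, 235 and 272 in WT and 306, 263 and 280.1 in UTX TCD libraries, and the list's sum was 475, 373 and 442 in WT and 373, 349.9 and 344 in UTX TCD libraries. Of 5 erythroid genes, 4 were listed, 2 tested and 0 called by limma (0 at an unadjusted p under 0.05, 0 by edgeR or DESeq2). Their sum was 242, 196 and 169 in WT and 175, 163 and 309 in UTX TCD libraries, with *Alas2* the most abundant at 174, 150.1 and 135 in WT and 144, 139 and 153 in UTX TCD libraries.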

How the data were processed

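RNA-seq (3 WT and 3 UTX TCD libraries) and ATAC-seq (3 and 3) of sorted T_prog_ cells were used, grouped by the genotype in the labels. RNA-seq reads had been passed by the authors through FastQC, HISAT2 2.2.1 (mm10), featureCounts and DESeq2. The RNA-seq signal the authors give is a gene's count over the size factor of its library. The annotation and strand of counting are not given in the sources used here. For ATAC-seq the authors used Cutadapt, Bowtie2, SAMtools, Picard, MACS2, DiffBind and HOMER. The authors' peak values are log2 mean normalized reads per genotype. The tables also hold the authors' own comparison (log2 fold change with standard error and adjusted p per gene, and overall concentration, fold, p and false discovery rate per peak), which was not used, apart from the limit that selects the peaks.

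Division by the smallest step of a library gave back reads, and 100% of values were whole within 0.1. Libraries held 61512402 to 193568919 reads, and the limit of 3 reads covers counting error only. limma 3.58.1 in R 4.3.3 (lmFit, eBayes with trend) was fitted to every gene with a mean of at least 10, with genotype as the only term and Benjamini-Hochberg adjustment over all genes tested. The fit was tested on simulated data. Sums, counts, medians and correlations over members are descriptions without p-values. Python 3.11.15, pandas 2.3.3 and matplotlib 3.10.9 did the rest. Gene starts and exons came from RefSeq for GRCm38.p6, the assembly of mm10, and antisense exons from GENCODE vM21. Promoter peaks lay within 1 kb of a start.

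Members, lists and tests were chosen with earlier results of these data known. Named genes are every member, *Kdm6a*, the gate and lineage genes, up to 4 called genes per list and direction with the smallest adjusted p, and the most abundant gene of each marker list, with exceptions marked. Further exceptions, not marked where they stand, are *Cd8b1*, *Cd3d*, *Cd3g* and *Lck* and the neuron genes other than *Tubb3* and *Map2*. Alternatives were the pseudocount, the filter, scaling to the same sum or by TMM, edgeR 4.0.16, DESeq2 1.42.0, the replicate number as a block, the fold limit, equal depth, each library left out, sums without the largest member, peak limits, the region and the peak distance. Labels do not say which libraries come from the same mice, so p-values measure the spread between these libraries.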

Additional observations from a re-analysis of the deposited data

How the results depend on the processing

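The number of γ members called higher stayed at 22 with other pseudocounts, scalings, tests, fold limits and equal depth. It was 20 with no filter, 18 of 18 tested at a mean of at least 50, and 20 to 22 with 1 library left out. With the replicate number as a block it was 21. Of 392 γ log2 fold changes under alternatives, 381 kept their call, 11 lost it (*Pcdhga6* and *Pcdhga10*) and 0 changed sign, within 0.76 to 3.57. The cause was not tested. The γ sum differed between genotypes by 1748 to 2113 with 1 library left out, the β sum by 11.3 to 35.5 and the α sum by -1.65 to 1.4996. With 1 library left out, α and β had 0 members tested, so their counts (0 to 0 each) say nothing of stability, and called lower members numbered 0 to 0. With no filter 1 β member was called, since low genes were then tested.

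Over all genes 2924 were higher and 2963 lower with no fold limit, as that limit alone was dropped. With 1 library left out, 1325 to 1549 were higher and 837 to 1023 lower. With the replicate number as a block (pairing), 1484 were higher and 990.0 lower. Same-numbered libraries correlated at 0.305, -0.2 and 0.0897, which does not settle whether they share a source. Scaling to the same sum gave 1727 higher and 851 lower and moved the median of all genes by 0.06. Of the 20 region peaks, 11 differed by over 1. Members with a peak went from 17 by name to 15 within 1 kb.

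Of 474 values for 27 other named genes, 443 kept their call, 23 lost it (*Cd4*, *Col1a2*, *Eomes*, *Ms4a1* and *Vaultrc5*), 5 gained it (*Cd3e*, *Cd68*, *Kdm6a* and *Pecam1*) and 3 changed sign, none of them called. With 1 library left out, *Foxp3* ran from -0.0556 (without WT replicate 2) to 0.160 (without WT replicate 1), with -0.01 without UTX TCD replicate 1, and *Alas2* from -0.153 (without WT replicate 3) to 0.0309 (without WT replicate 1), on the log2 scale. The cause was not tested. Depth limits the α and β genes, and ATAC-seq has no value per library.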
